A study of Homo sapiens with 26 samples.

Results

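The 27 genes described here carry out or govern cholesterol synthesis and uptake. They were chosen by name: 18 enzymes from acetyl-CoA to cholesterol (ACAT2, HMGCS1, MVK, PMVK, MVD, IDI1, FDPS, FDFT1, SQLE, LSS, CYP51A1, TM7SF2, MSMO1, NSDHL, HSD17B7, EBP, SC5D and DHCR7), 5 regulators (INSIG1, INSIG2, SCAP, SREBF1 and SREBF2), and 4 genes of sterol transport and lipoprotein receptor turnover (STARD4, NPC1, NPC2 and MYLIP). All 27 were matched by Ensembl identifier to a row of a table of 41078 genes. Each was measured in 26 single cell-derived cell lines (SCDCLs, here also clones), 12 labelled BxPC3 and 14 labelled Panc1, with 1 mRNA library per clone. BxPC3 and Panc1 are established human pancreatic ductal adenocarcinoma lines. Each SCDCL was grown from 1 cell after limiting dilution in high-glucose medium with fetal bovine serum, which supplies cholesterol, and RNA was taken near confluency in a flask. Gemcitabine is named in the labels of all libraries, but the methods mention the drug only for viability assays run separately, so no comparison by treatment was made.

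Cells make cholesterol from acetyl-CoA through the mevalonate pathway, the isoprenoid farnesyl diphosphate, squalene and lanosterol. When sterols in the endoplasmic reticulum run low, SCAP escorts the SREBP proteins, encoded by SREBF1 and SREBF2, to the Golgi, where they are cut into active transcription factors for the enzyme genes. When sterols are plentiful, INSIG1 and INSIG2 hold SCAP in place, and INSIG1 is itself an SREBP target, which closes a feedback loop.

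The labels were checked with SMAD4, which is deleted in BxPC3 and retained in Panc1. SMAD4 was at most 0.0440 TPM (a transcript's share of its library, corrected for length) in 12 libraries and between 28.1 and 52.2 TPM in the other 14. The SMAD4-low libraries (under 1 TPM) were 5 labelled BxPC3 (numbers 16, 21, 24, 25 and 26) and 7 labelled Panc1 (1 to 7). The SMAD4-expressing libraries were 7 labelled BxPC3 (15, 17 to 20, 22 and 23) and 7 labelled Panc1 (8 to 14). SMAD4 therefore went against the label in 14 of 26 libraries, and the labels are written here as "labelled". The epithelial cadherin CDH1 ranged from 90.8 to 198 TPM in SMAD4-low and from 0.338 to 7.74 TPM in SMAD4-expressing libraries, and the intermediate filament gene VIM from 1.42 to 73.2 and from 3047 to 4526 TPM. The epithelial EPCAM (239 to 424 against 7.49 to 25.5 TPM) and the mesenchymal ZEB1 (0.258 to 2.39 against 16.8 to 26.2 TPM) were likewise separated, while KRT19 and CDH2 overlapped. All libraries held between 27035724 and 34945608 estimated counts. The SMAD4 groups were set from a measured gene, so differences between them are given as values without a test. Their sizes, 12 and 14, are also those of the labelled BxPC3 and Panc1 groups. A difference between the SMAD4 groups cannot be told apart from one between the parental lines, of which 1 lacks SMAD4. In a bulk library, fewer cells expressing a gene and less RNA per cell cannot be told apart.

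Most synthesis enzymes were higher in SMAD4-expressing clones, whereas most regulators and all the transport genes were lower there. Medians were higher in 16 of 18 enzymes, in 1 of 5 regulators and in 0 of 4 transport genes. The median difference in log2(TPM + 1), SMAD4-expressing minus SMAD4-low, was 0.88 over enzymes, -0.77 over regulators and -0.64 over transport genes. It was 0.57 over all members and 0.02 over the 14763 genes with a mean of at least 1 TPM. The ranges of the SMAD4 groups did not overlap for 4 members higher in SMAD4-expressing clones (MVK, PMVK, NSDHL and SC5D), against 15.8% of all genes in that direction, and for 2 lower members (INSIG2 and SCAP), against 14.5%. Neither share was above that of genes in general. Without library 22, 7 of 27 members (25.9%) were higher without overlap, against 16.6% of all genes. In that setting 2 were lower (7.41%), against 14.9%. Library 22 was singled out as the lowest of its group for 19 of 27 members, so leaving it out favours a larger count of higher members. Leaving out any other library gave 4 or 5 higher members.

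**Figure D1:**
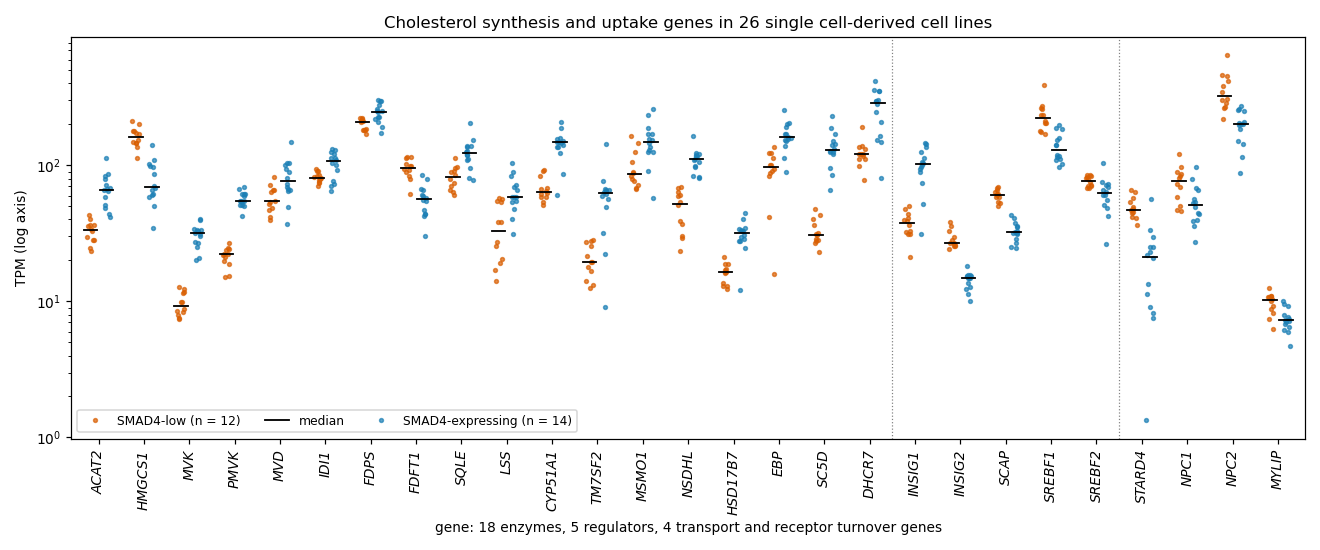
TPM (log axis) of each of the 27 genes in every clone, as 1 point per library, for 12 SMAD4-low and 14 SMAD4-expressing clones, with a black line at each median. Dotted lines part enzymes, regulators and transport genes. MVK, PMVK, NSDHL and SC5D do not overlap between groups, being higher in SMAD4-expressing clones, and INSIG2 and SCAP do not overlap, being lower.

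The first steps of the pathway did not move together between the groups. ACAT2, which condenses acetyl-CoA to acetoacetyl-CoA, had a lowest, median and highest level of 23.5, 33.5 and 43.5 TPM in SMAD4-low and of 41.7, 66.2 and 113 TPM in SMAD4-expressing clones. All but 1 of the latter lay above every SMAD4-low clone. HMGCS1 (chr5:43287470-43313512, GRCh38, minus strand), which makes HMG-CoA in the next step, went the other way, with 112, 161 and 213 TPM in SMAD4-low and 34.4, 69.4 and 142 TPM in SMAD4-expressing clones. Its median was 2.33-fold higher in SMAD4-low clones, and 13 of 14 SMAD4-expressing clones lay below the lowest SMAD4-low clone. The exception was library 8, at 142 TPM.

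The 3 enzymes that phosphorylate mevalonate and decarboxylate the product differed in how far they separated. MVK, mevalonate kinase (chr12:109573255-109598125), had 7.47, 9.32 and 12.7 TPM in SMAD4-low and 20.1, 31.6 and 40.1 TPM in SMAD4-expressing clones, a 3.39-fold higher median. PMVK, phosphomevalonate kinase (chr1:154924740-154936719), had 15.02, 22.2 and 26.8 TPM against 42.5, 54.8 and 69.9 TPM, a 2.47-fold higher median. Neither kinase overlapped between the groups. MVD, the decarboxylase, overlapped broadly, at 39.9, 54.3 and 82.7 TPM against 37.3, 76.8 and 148 TPM.

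IDI1 and FDPS, on the way to farnesyl diphosphate, the branch point to other isoprenoids, differed least of the enzymes. IDI1, which interconverts the isoprenoid building blocks, ranged from 70.7 to 94.7 TPM in SMAD4-low and from 64.8 to 132 TPM in SMAD4-expressing clones, with a log2 difference of medians of 0.39. FDPS, farnesyl diphosphate synthase, was the most abundant enzyme of the SMAD4-low group at a median of 210 TPM and reached a median of 248 TPM in SMAD4-expressing clones, a difference of 0.24 in log2. FDFT1, which makes squalene and so commits carbon to sterols, was the other enzyme with a lower median in SMAD4-expressing clones. It had 61.9, 96.3 and 116 TPM in SMAD4-low and 30.4, 56.2 and 85.2 TPM in SMAD4-expressing clones, a 1.71-fold higher median in the former.

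Past squalene, every enzyme had the higher median in SMAD4-expressing clones. SQLE, which oxidises squalene, had medians of 82.2 and 122 TPM, and LSS, which closes the ring to lanosterol, of 32.7 and 58.7 TPM. CYP51A1, lanosterol demethylase, had 51.5, 64.2 and 92.6 TPM in SMAD4-low and 60.8, 147 and 209 TPM in SMAD4-expressing clones, with 12 of 14 of the latter above every SMAD4-low clone. TM7SF2, a sterol reductase, had medians of 19.5 and 63.0 TPM. The ranges of all 4 overlapped.

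MSMO1, NSDHL and HSD17B7 together remove the methyl groups at sterol carbon 4. NSDHL (chrX:152830967-152869729) did not overlap, with 23.4, 52.2 and 69.6 TPM in SMAD4-low and 80.2, 111 and 164 TPM in SMAD4-expressing clones. MSMO1 and HSD17B7 overlapped, with medians of 85.7 and 149 TPM and of 16.4 and 31.9 TPM. For HSD17B7, 13 of 14 SMAD4-expressing clones lay above the SMAD4-low range, and library 22, at 12.2 TPM, lay below it. Reads of HSD17B7 and of FDPS are uncertain, since near-identical gene copies exist from which they may not be separable.

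The final enzymes included SC5D, which had the largest ratio of medians among the members. This sterol C5-desaturase gene (chr11:121292681-121313410), had 23.3, 31.0 and 48.1 TPM in SMAD4-low and 66.1, 130 and 230 TPM in SMAD4-expressing clones, a 4.19-fold higher median. DHCR7, which reduces 7-dehydrocholesterol, had 78.3, 121 and 192 TPM against 81.4, 289 and 418 TPM, and EBP, a sterol isomerase, had 16.03, 97.2 and 137 TPM against 89.8, 161 and 254 TPM. DHCR7 and EBP overlapped.

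Among the regulators, the INSIG genes went in opposite directions. INSIG1 (chr7:155297776-155310235) had 21.1, 37.9 and 50.5 TPM in SMAD4-low and 31.5, 102 and 145 TPM in SMAD4-expressing clones, with 13 of 14 of the latter above the SMAD4-low range. INSIG2 (chr2:118088452-118110997) had 24.3, 26.7 and 38.1 TPM in SMAD4-low and 10.1, 14.8 and 18.3 TPM in SMAD4-expressing clones. INSIG2 did not overlap between the groups, and INSIG1 did so only through library 22.

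The genes for SCAP and the SREBPs had lower medians in SMAD4-expressing clones. SCAP (chr3:47413681-47477126) had 50.3, 60.7 and 69.3 TPM in SMAD4-low and 24.9, 32.2 and 43.2 TPM in SMAD4-expressing clones, and the groups did not overlap. SREBF1, whose protein acts mostly on fatty acid genes, had medians of 222 and 130 TPM. SREBF2, whose protein acts mostly on cholesterol genes, had 68.4, 77.2 and 84.7 TPM in SMAD4-low and 26.4, 62.3 and 104 TPM in SMAD4-expressing clones, which spread to both sides of the SMAD4-low range.

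All 4 transport genes overlapped between the groups. STARD4 (chr5:111496033-111512590), which carries cholesterol between membranes, had 36.7, 47.2 and 65.8 TPM in SMAD4-low and 1.33, 21.3 and 56.5 TPM in SMAD4-expressing clones. Only library 13, at 56.5 TPM, kept the groups from separating. NPC1 and NPC2, which export cholesterol from lysosomes, had medians of 77.1 and 51.4 TPM and of 326 and 201 TPM. MYLIP, a ubiquitin ligase that degrades lipoprotein receptors, had medians of 10.2 and 7.25 TPM.

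No member was called between the labels. The labels imply a comparison of the parental lines, as 14 libraries labelled Panc1 against 12 labelled BxPC3. Since both labelled groups held SMAD4-low and SMAD4-expressing clones, it compares the labels and cannot answer whether the lines differ. By edgeR's quasi-likelihood test with Benjamini-Hochberg adjustment, 0 of 27 members and 0.0% of 16008 genes were called at an adjusted p under 0.05, and the smallest adjusted p was 0.677. At an unadjusted p under 0.05 there were 0 members, against 2.29% of all genes. The members' log2 fold changes, Panc1 minus BxPC3, ran from -0.33 for NPC1 to 0.41 for TM7SF2.

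With the SMAD4 group held fixed as a term, edgeR called 0 of 27 members and 0.0% of 16800 genes, and the smallest adjusted p was 0.242. The 2 members at an unadjusted p under 0.05, against 7.52% of all genes, were ACAT2, with a log2 fold change of 0.28 and an edgeR adjusted p of 0.645, and NPC1, with -0.35 and an adjusted p of 0.659. DESeq2 called no member in either comparison. Since nothing says that the clones are replicates of each other beyond their parental line, these p-values rest on the spread among clones. In the comparison without the SMAD4 term, that spread also holds the difference between the SMAD4 groups.

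Clones of the same SMAD4 group differed in these genes by more than counting error. The SD of log2 values that counting alone would give (Poisson, from the estimated counts) had a median of 0.03 over members in both groups and was at most 0.08. The SD over clones was more than 2 times the counting SD in all 27 members in each group, and the smallest ratio was 3.04. The same count over all genes was not made, so this was not shown to be particular to the members. Counting error leaves out the assignment of reads among similar transcripts and the variation between cultures of a clone. Among SMAD4-low clones the median SD over members was 0.27, near the 0.28 of the 11091 genes with a mean of at least 5 TPM. Among SMAD4-expressing clones it was 0.42, against 0.27 for 10850 genes, and 22 of 27 members exceeded the median gene, against 12 of 27 among SMAD4-low clones.

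**Figure D2:**
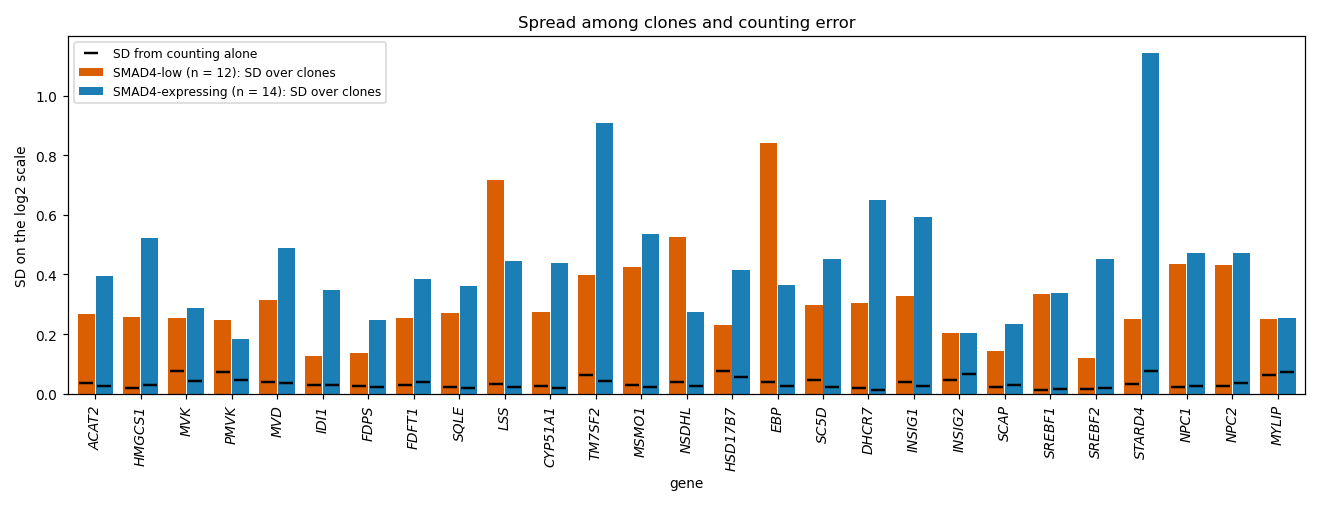
Bars, from 0, give the SD over clones of log2(TPM + 1) for each gene in 12 SMAD4-low and 14 SMAD4-expressing clones, and black dashes give the SD that counting alone would give. STARD4 and TM7SF2 have the tallest bars among SMAD4-expressing clones, at 1.14 and 0.91, and EBP and LSS among SMAD4-low clones, at 0.84 and 0.72.

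The SD was larger among SMAD4-expressing clones for 22 of 27 members. The largest were those of STARD4, at 1.14, where levels ran from 1.33 TPM in library 22 to 56.5 TPM in library 13, and TM7SF2, at 0.91, from 9.06 to 145 TPM in the same libraries. Library 22 was the lowest SMAD4-expressing clone for 19 of 27 members. No SD or median SD was computed without it, so its share in the larger spread of that group was not measured. The spread of PMVK, LSS, NSDHL, EBP and INSIG2 was larger among SMAD4-low clones. EBP lay at 16.03 TPM in library 26 and 42.0 TPM in library 21, both labelled BxPC3, and between 83.5 and 137 TPM in the other 10. LSS was spread widely, from 14.1 to 20.5 TPM in libraries 3, 5, 6 and 7, all labelled Panc1, to 54.1 to 57.3 TPM in libraries 1, 2, 24 and 25. NSDHL had an SD of 0.52 and was lowest in library 24, at 23.4 TPM.

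The members varied together among SMAD4-expressing clones, and on TPM no more than other genes did among SMAD4-low clones. Over the 351 pairs of members, the median Spearman correlation of TPM was 0.455 among 14 SMAD4-expressing clones, against 0.029 over all 95572225 pairs of 13826 genes. A rho of at least 0.5 was reached by 148 pairs of members (42.2%), against 6.30% of all pairs. Over the 153 pairs of enzymes the median was 0.604, and 11 pairs were negative. Among 12 SMAD4-low clones the median over members was 0.0979, against 0.099 over all pairs of 14375 genes, and 11.1% of member pairs reached 0.5, against 14.3% of all. The pairs share libraries and are therefore a description, without a test.

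**Figure D3:**
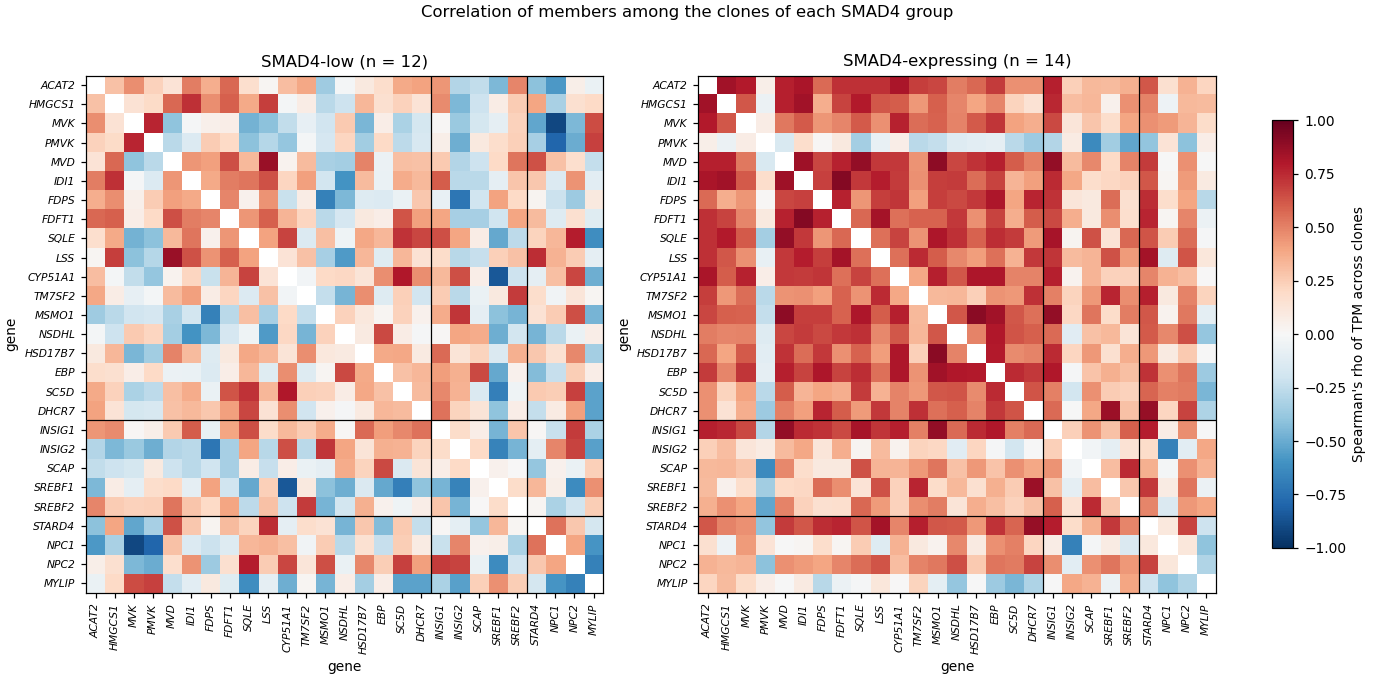
Spearman's rho of TPM across clones for every pair of the 27 genes (both axes), with 12 SMAD4-low clones on the left and 14 SMAD4-expressing clones on the right, in red for positive and blue for negative. Lines part enzymes, regulators and transport genes. The block of enzymes is mostly red on the right, with a median of 0.604 over its pairs, and mixed on the left, with a median of 0.189.

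The excess among SMAD4-expressing clones rested in part on 2 clones. Without library 22 the median over members was 0.363, and without libraries 22 and 9 it was 0.252, against 0.033 and 0.021 over all pairs. Over enzymes it was 0.511 and 0.392. With values centred within each label, so that a difference between labels could not contribute, the medians were 0.486 over members and 0.640 over enzymes. Among SMAD4-low clones the centred median was 0.112, equal to that of all pairs. On log2(CPM + 1) with TMM factors, the SMAD4-low median was 0.238, against 0 over all pairs, and the SMAD4-expressing one 0.380, against 0.002, so whether SMAD4-low members exceeded other genes depended on the scaling.

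INSIG1 tracked the enzymes more closely than any other member among SMAD4-expressing clones. Its median rho with the 18 enzymes was 0.734, and 17 of them reached 0.5. EBP (0.714), MVD (0.705), ACAT2 (0.697) and IDI1 (0.692) followed, each with the 17 other enzymes, and STARD4 had 0.622. The other regulators were lower, with 0.334 for SCAP, 0.330 for SREBF2, 0.244 for SREBF1 and 0.163 for INSIG2, and so were NPC2 at 0.470, NPC1 at 0.147 and MYLIP at -0.0044. PMVK alone of the enzymes had a negative median, -0.0901, with 11 of 17 pairs below 0.

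Single pairs reached high values in both groups. Among SMAD4-expressing clones the highest were IDI1 with FDFT1 at 0.921 and MSMO1 with HSD17B7 at 0.903, and the lowest were INSIG2 with NPC1 at -0.675 and PMVK with SCAP at -0.640. Among SMAD4-low clones, MVD with LSS reached 0.860, CYP51A1 with SC5D 0.804 and MVK with PMVK 0.762. MVK with NPC1 was at -0.909 and CYP51A1 with SREBF1 at -0.846. Median rho with the enzymes was at most 0.413 (FDFT1) there, with 0.381 for INSIG1, -0.175 for SREBF1 and -0.182 for MSMO1.

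Library 22, labelled BxPC3, stood lowest in the SMAD4-expressing group. Its mean z-score over the 18 enzymes was -1.80, and it held the lowest value of the group for 13 enzymes and for 19 of 27 members, whereas 13.4% of 10850 genes were lowest there. Its level was 0.0627 times the group median for STARD4, 0.144 times for TM7SF2, 0.281 times for DHCR7 and 0.308 times for INSIG1. SC5D lay near the group median there, at 127 TPM, and PMVK and NPC1 above it, at 61.9 and 65.8 TPM. Its MKI67, a proliferation gene, was the highest of the group at 84.0 TPM, and the part of that difference in the result was not tested.

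Other clones leaned one way as well. Library 9, labelled Panc1, had a mean z-score of -1.23 and lay below the group median for all 18 enzymes. Library 13, labelled Panc1, had the highest mean z-score, 1.11, and the highest value for 11 members, against 7.84% of genes. Library 20, labelled BxPC3, at 0.737, was highest for 8 members, among them SQLE, MSMO1, SC5D and NPC1, but lowest for PMVK, INSIG2 and MYLIP. Both labels thus occurred at each end.

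**Figure D4:**
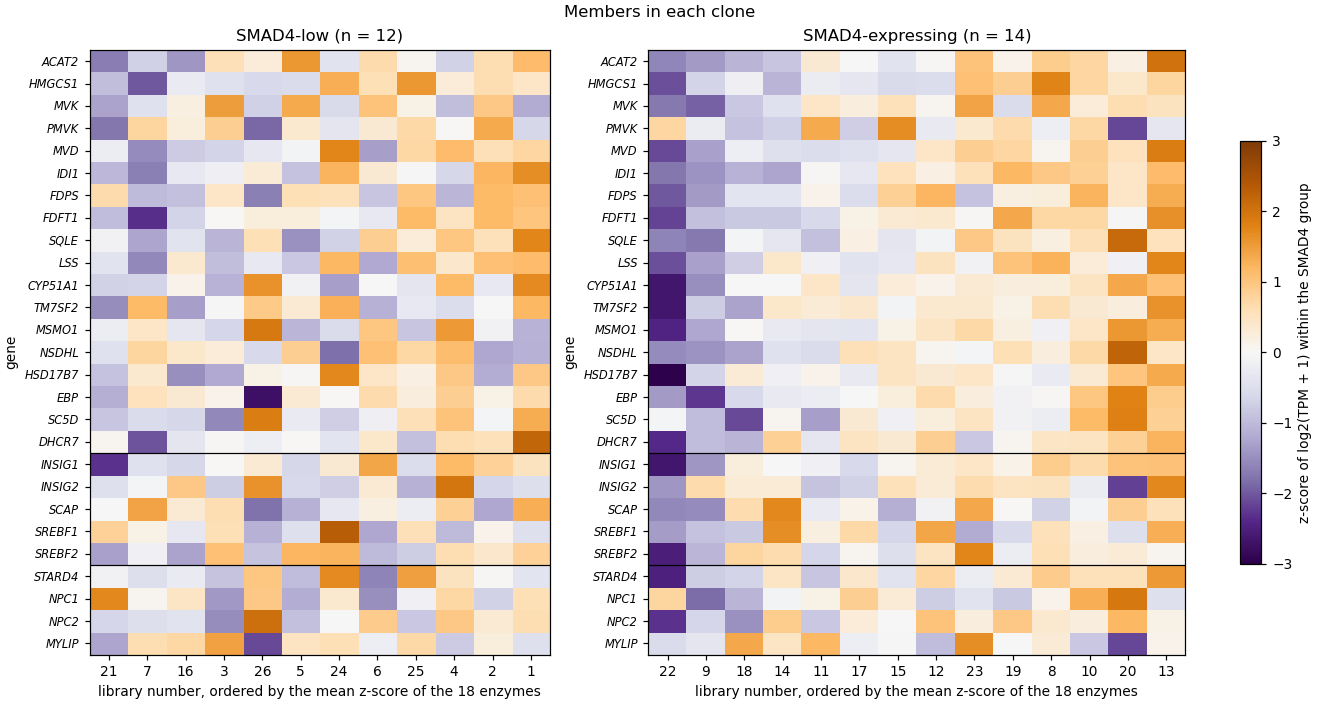
Each cell gives the z-score of log2(TPM + 1) of a gene (rows) in a clone (columns, by library number), computed within the SMAD4 group, purple for low and orange for high. Clones are ordered by the mean z-score of the 18 enzymes. Library 22, at the left of the SMAD4-expressing panel, is lowest for 19 of 27 genes, while among SMAD4-low clones the colours are mixed.

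Among SMAD4-low clones the mean z-score ran only from -0.745 in library 21 to 0.717 in library 1. Library 7 was lowest for 6 members (LSS, FDFT1, DHCR7, HMGCS1, MVD and IDI1), against 2.49% of genes, whereas libraries 21 and 26 were lowest for 5 each, against 12.02% and 23.9% of genes. As a description, the mean z-score had a Spearman rho with a proliferation list of -0.322 among 12 SMAD4-low and 0.121 among 14 SMAD4-expressing clones, and with total counts of 0.434 and -0.231.

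HMGCS1 was set against each other member within each group, as 52 relations of the 28199 with all genes, by 2-sided permutation tests with 100000 permutations. Among 14 SMAD4-expressing clones, 15 of 26 members had a positive Pearson r on log2(TPM + 1) at an unadjusted permutation p under 0.05. The share of all genes was 5.33%. By Spearman's rho, 10 members were positive at an unadjusted permutation p under 0.05. Among 12 SMAD4-low clones, 4 of 26 members passed by r, against 1.48% of all genes, and 3 by rho. After Benjamini-Hochberg adjustment over all relations, 0 members and 0 genes passed, and the smallest adjusted permutation p of a member was 0.819. The smallest permutation p possible was 9.9999e-06, and over 28199 relations a single gene at that floor could not have passed. Without libraries 8 and 22, the farthest from the median of HMGCS1, 7 of 26 members were under 0.05 among SMAD4-expressing clones, and without library 22 alone 8. Among SMAD4-low clones it was 2 without libraries 7 and 25, and 1 without library 7.

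The members nearest to HMGCS1 by r among SMAD4-expressing clones were IDI1, ACAT2 and INSIG1, and among SMAD4-low clones FDFT1, LSS and IDI1. Among SMAD4-expressing clones IDI1 had an r of 0.824 (permutation p = 0.00023) and a rho of 0.842 (p = 0.00042), and an r of 0.761 without the 2 farthest libraries. ACAT2 had an r of 0.795 (permutation p = 0.00082) and a rho of 0.837 (p = 0.00033), and an r of 0.743 without them. INSIG1 had an r of 0.791 (permutation p = 0.00055) and a rho of 0.754 (p = 0.0025), and an r of 0.607 without those libraries. Among SMAD4-low clones IDI1 had an r of 0.709 (permutation p = 0.00945) and a rho of 0.727 (p = 0.00966), and 0.745 without the 2 farthest. FDFT1 had an r of 0.759 (permutation p = 0.00453), which fell to 0.419 without them, and LSS an r of 0.747 (permutation p = 0.00514), which fell to 0.585. INSIG1 had an r of 0.443 (permutation p = 0.15) in that group. PMVK had an r of -0.104 (permutation p = 0.725) among SMAD4-expressing clones.

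**Figure D5:**
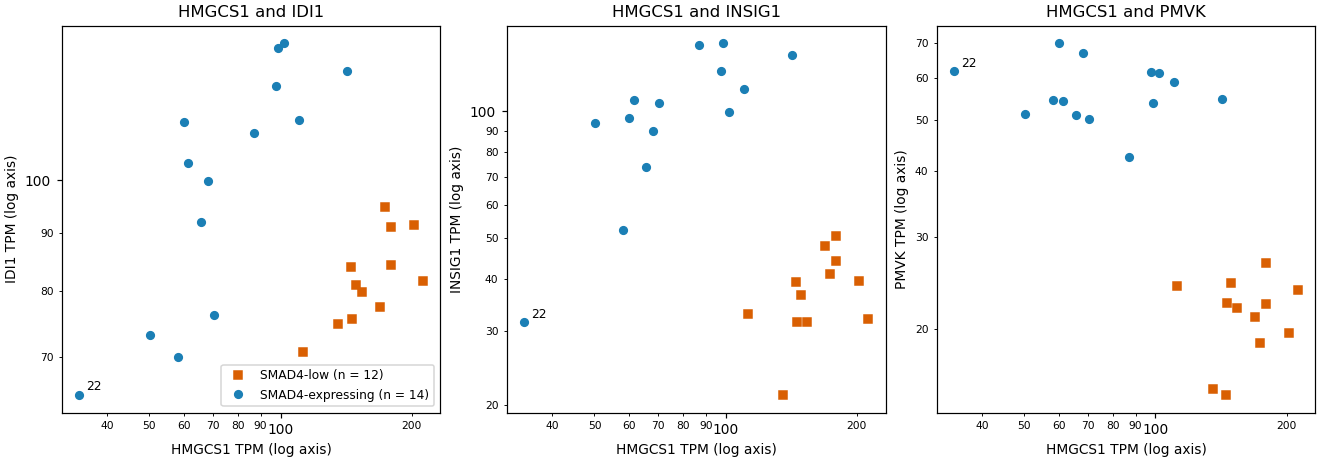
TPM of IDI1, INSIG1 and PMVK (y, log axes) against TPM of HMGCS1 (x, log axis), with 1 point per clone, as squares for SMAD4-low and circles for SMAD4-expressing clones, and library 22 marked. IDI1 is higher where HMGCS1 is higher in both groups (r of 0.824 and 0.709), INSIG1 has an r of 0.791 among SMAD4-expressing and 0.443 among SMAD4-low clones, and PMVK has -0.104 among SMAD4-expressing clones.

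The promoters were examined for 3 motifs that act with SREBPs. RefSeq windows from 250 bases before to 50 after each start were held for 24 of 27 members, as 31 windows. Both strands were searched for the sterol regulatory element TCACNCCAC, the NF-Y box CCAAT and the Sp1 box GGGCGG. The element in this form lay in 1 member window, that of SREBF2, and in 1.13% of all 35116 windows. Other forms of the element, and bases outside the windows, were not searched. A member without a match is therefore not shown to lack a sterol regulatory element. The NF-Y box lay in 64.5% of member windows, in 18 of 24 members, against 34.6% of all windows, and the Sp1 box in 93.5%, against 45.0% of all windows and 65.9% of windows of genes with a mean of at least 1 TPM. No NF-Y box lay in the windows of CYP51A1, PMVK, INSIG2, SCAP, SREBF1 and NPC1.

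The following 3 promoters show the member with a match to the sterol element searched, the member that tracked the enzymes most closely and the enzyme that did not track them. The last 2 were chosen after their values were seen. Capitals mark the sterol element and the NF-Y box, here ATTGG on the strand shown, and only bases before the annotated gene are given, 5′ to 3′ (GRCh38.p14, RefSeq). SREBF2 is at chr22:41832855-41833104 on the plus strand, INSIG1 at chr7:155297628-155297775 on the plus strand and PMVK at chr1:154936720-154936969 on the minus strand.
SREBF2: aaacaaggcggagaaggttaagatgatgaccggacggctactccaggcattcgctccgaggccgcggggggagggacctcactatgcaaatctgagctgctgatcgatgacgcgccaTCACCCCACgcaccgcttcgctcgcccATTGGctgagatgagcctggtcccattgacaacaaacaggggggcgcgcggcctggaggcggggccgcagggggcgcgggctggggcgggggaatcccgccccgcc
INSIG1: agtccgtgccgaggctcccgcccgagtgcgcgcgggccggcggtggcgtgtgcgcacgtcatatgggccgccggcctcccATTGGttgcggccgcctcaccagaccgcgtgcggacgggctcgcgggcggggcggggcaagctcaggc
PMVK: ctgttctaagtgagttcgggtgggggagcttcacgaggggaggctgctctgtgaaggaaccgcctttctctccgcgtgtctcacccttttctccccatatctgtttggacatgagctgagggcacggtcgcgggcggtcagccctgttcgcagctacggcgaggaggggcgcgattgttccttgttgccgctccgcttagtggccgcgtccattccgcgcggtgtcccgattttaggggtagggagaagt
The element of SREBF2 begins 133 bases before the RefSeq start and its NF-Y box 106 bases before it. The NF-Y box of INSIG1 begins 68 bases before the GENCODE 44 gene start at which the printed stretch ends, and 170 bases before the RefSeq start, which lies inside that gene. The PMVK stretch holds neither motif. A match is a description of letters, and none of the 3 was tested as a binding site.

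Neighbouring pathways were described for the same groups. Of 12 fatty acid synthesis genes, 2 were higher without overlap in SMAD4-expressing clones (FADS2 and LPIN1), 3 were lower (ELOVL6, ACSL3 and MID1IP1), and 7 overlapped. FADS2, a desaturase, ranged from 4.29 to 10.3 TPM in SMAD4-low and from 24.5 TPM in library 22 to 520 TPM in library 13 in SMAD4-expressing clones. ELOVL6, an elongase, ranged from 24.3 to 64.0 TPM and from 0.120 to 22.9 TPM. Of 10 isoprenoid branch genes, 3 were higher without overlap, with GGPS1, which makes geranylgeranyl diphosphate, at medians of 15.1 and 56.9 TPM and PDSS2, of the coenzyme Q side chain, at 3.75 to 9.01 against 12.4 to 23.4 TPM, and 1 was lower, FNTA. The third of the higher genes was NUS1. The direction was therefore mixed within both lists.

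Of 7 genes for SREBP processing and sterol-regulated degradation, 0 were higher and 2 lower without overlap. ERLIN2 ranged from 34.8 to 46.2 TPM in SMAD4-low and from 4.80 to 10.0 TPM in SMAD4-expressing clones, and RNF139 from 39.6 to 54.0 and from 24.0 to 33.0 TPM. Of 11 sterol transport and storage genes, 0 were higher and 4 lower without overlap (STARD3, GRAMD1B, OSBP and NR1H2), with STARD3 at 83.1 to 148 against 33.1 to 54.2 TPM. The list's median difference had the other sign, 0.44 in log2(TPM + 1), since medians were higher in SMAD4-expressing clones for 6 of the 11, all of them overlapping. SCARB1, a lipoprotein receptor, was 1 of the 6, with medians of 63.5 and 209 TPM. Of 6 proliferation genes, 0 were higher and 1 lower without overlap, MCM2, at 81.0 to 176 against 41.7 to 74.2 TPM, and PCNA had medians of 510 and 235 TPM. Beyond the first 2 genes of a list, names were given after values were seen. The share of all genes without overlap was 30.3% in either direction.

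Outside the members, genes that followed the mean z-score of the enzymes in both groups were ranked by the lower of the 2 Spearman correlations among 9707 genes. FADS2 ranked first, with 0.587 among 12 SMAD4-low and 0.631 among 14 SMAD4-expressing clones. BOK, a BCL2 family gene, had 0.559 and 0.569, and HOMER2 and DBI, an acyl-CoA binding protein gene, had 0.524 in SMAD4-low clones with 0.525 and 0.534 in SMAD4-expressing clones. SYNGR1, LMBR1, NUDT5 and ATP5MF had lower values of 0.490 to 0.516, all in SMAD4-expressing clones. TMEM97, a sterol-responsive membrane protein gene, had 0.490 and 0.749. These ranks are a description, with no test. How high the first of 9707 genes unrelated to the enzymes would reach over so few clones was not computed.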

How the data were processed

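Polyadenylated RNA of 26 SCDCLs was sequenced in pairs of 150 bases, with strand kept. The authors quantified transcripts with kallisto 0.46.1 against Ensembl 103 (GRCh38) and deposited TPM and estimated counts per gene, with resampled counts. The deposited expected counts derive from TPM and transcript length, scaled to library totals. Resampled counts and transcript lengths, 806 columns, were not used.

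Libraries held 27035724 to 34945608 estimated counts (median 29623513), so differences in genes of few counts are limited by counting error. SMAD4 groups came from TPM under 1 or not. Differences used log2(TPM + 1). Label tests used rounded counts with edgeR's quasi-likelihood test, TMM and filterByExpr, on all libraries. HMGCS1 relations were adjusted over all 28199 genes and groups, in place of the adjustment over pairs first planned. z-scores were of log2(TPM + 1) within a SMAD4 group. The spread used genes with a mean of at least 5 TPM and the correlations those of at least 1 TPM. Motifs were searched in RefSeq windows. Tests were checked on simulated data. Members, lists and tests were chosen with earlier results of these data known.

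Named genes were the members, the check genes, up to 2 genes per other list with the largest difference between SMAD4 groups at a mean of at least 5 TPM, and up to 10 genes following the enzymes. Not every gene this rule names is reported. Alternatives were other scalings (median-of-ratios factors, TMM CPM), pseudocounts of 0.1 and 5, Pearson's r, no filter, centring within labels, DESeq2, limma and each library left out. Tools were Python 3.11.15, numpy 2.4.6, pandas 2.3.3, scipy 1.17.1, R 4.3.3, edgeR 4.0.16, DESeq2 1.42.0 and limma 3.58.1.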

Additional observations from a re-analysis of the deposited data

How the results depend on the processing

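No paired analysis was possible, because each library is a separate clone and nothing in the labels pairs a BxPC3 with a Panc1 clone. DESeq2 called 1 gene between labels (MYH16) and 3 with the SMAD4 group as a term (MYH16, ATP10B and ATPSCKMT), none of them a member; median-of-ratios factors, no filter and limma, where run, called 0. The count of members without overlap between SMAD4 groups was 6 under TMM CPM, median-of-ratios TPM and no filter, and 6 to 9 with each library left out. The higher count was 4 to 7, reaching 7 without library 22, when ACAT2, HSD17B7 and INSIG1 were added, and the lower count was 2 to 3. The direction of the median difference of all 27 members held under those scalings. The median rho among SMAD4-low clones was 0.238 on TMM CPM and 0.0636 to 0.136 with each library left out. Among SMAD4-expressing clones it was 0.363 to 0.506 with each library left out, and 0.252 without libraries 22 and 9, a setting chosen after seeing the data. The number of members with a positive r with HMGCS1 at an unadjusted permutation p under 0.05 was 7 among SMAD4-expressing and 2 among SMAD4-low clones without the 2 farthest libraries, and 8 to 17 and 1 to 5 with each library left out. The causes were not tested. With 1 library per clone, culture-to-culture variation of a clone was not measured.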
